A study of Capra hircus with 3 samples.

Results

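Heat shock proteins and endoplasmic reticulum (ER) stress genes were examined in the skin of Arbas Cashmere goats (Capra hircus) under a short photoperiod. The genes were taken from the array by name. A probe belonged to the set if its array name was DDIT3, ATF4 or XBP1 or began with HSP or DNAJ, or if its description held a chaperone or protein disulfide isomerase term. This rule found 24 of the 15008 probes on the array, carrying 19 of its 14363 identifiers. By their names and descriptions they represent 17 genes, and 0 probes are named XBP1. HSP90AA1 and PDIA4 are each assigned a pair of identifiers, 1 of each pair by its description alone. By the known place of each protein, 13 probes (10 genes) were cytosolic, 6 (4 genes) were of the ER, 2 (1 gene) were mitochondrial and 3 (2 genes) encoded transcription factors.

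The 6 goats were 2-year-old females, with 3 in each condition, and all were of 1 strain. The goats of the short photoperiod spent 7 hours of the day outdoors and the rest in a dark shed at about 0.1 lux, which was 1 degree cooler than outside, while the natural photoperiod goats (long photoperiod in the sample titles) grazed in natural conditions. Each of the 3 arrays compared the skin RNA of 1 short photoperiod goat, labelled with Cy5, with that of 1 goat under natural conditions, labelled with Cy3. The paper states that the compared goats had the same parent, and also that the goats were divided at random. The sample labels give no parentage. All skin was taken in July. The dyes were never swapped, so the dye bias of a probe cannot be told apart from the effect of the photoperiod. The probes are sheep sequences of 60 bases, hybridised here to goat RNA.

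Newly made proteins are folded by chaperones. In the cytosol, HSP70 and HSP90 proteins work with J-domain cochaperones, and the TRiC ring folds actin and tubulin. In the ER, the HSP70 protein HSPA5 (also known as BiP or GRP78) and the protein disulfide isomerases fold secreted and membrane proteins, and when unfolded protein builds up there, ATF4 is made and raises DDIT3 (CHOP), which can lead to cell death. Hair follicles in anagen produce large amounts of keratin and other protein, and fibroblasts of the dermis secrete collagen.

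The probes of 3 genes are printed because they show which pairs overlap in sequence and which do not. Both probes of a pair read the same goats on the same arrays. The DDIT3 pair carries 1 identifier (FE020981), and the capitals mark the run of 59 bases that both share.

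DDIT3 probe 1: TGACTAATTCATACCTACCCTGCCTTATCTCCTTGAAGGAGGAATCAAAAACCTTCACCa

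DDIT3 probe 2: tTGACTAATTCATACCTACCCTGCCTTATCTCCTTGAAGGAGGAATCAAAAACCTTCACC

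The HSP70.1 pair (EE825964) likewise shares 58 bases, in capitals, so each of these pairs is nearly 1 probe printed at separate spots.

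HSP70.1 probe 1: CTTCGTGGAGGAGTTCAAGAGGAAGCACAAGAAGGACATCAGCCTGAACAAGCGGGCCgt

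HSP70.1 probe 2: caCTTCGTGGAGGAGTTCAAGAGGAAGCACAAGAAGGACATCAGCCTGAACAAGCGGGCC

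The HSPA5 probes (DQ029323) share no run longer than 7 bases and sample different parts of the transcript, so no letters are in capitals.

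HSPA5 probe 1: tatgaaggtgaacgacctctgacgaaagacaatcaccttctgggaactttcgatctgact

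HSPA5 probe 2: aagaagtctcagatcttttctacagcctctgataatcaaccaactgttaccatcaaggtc

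The GRPEL1 pair shares 57 bases and the TCP1 pair 13. Probes of the 2 identifiers assigned to HSP90AA1 share no run over 6 bases, and those assigned to PDIA4 none over 5. Between probes of different member genes the longest shared run was 9 bases. The G and C content of the 24 probes lay between 35% and 55%.

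Both channels read all 24 probes as well above background on every array, and 0 of their spots carried an outlier flag or were saturated on any array. In Cy5 the median spot intensity of an array ranged from 4587 to 7120, and in Cy3 from 2688 to 3911. After background correction and loess normalization within each array, a log2 ratio above 0 means more signal in the short photoperiod goat. The intensities of single goats given below are log2 values scaled between arrays. Skin markers were found at well above background on all arrays, with KRT14 of the basal epidermis, COL1A1 and COL3A1 of fibroblasts and TYR of pigment cells. The list of leukocyte markers was lower under the short photoperiod in 16 of its 17 probes (9 of 15 listed genes), with a median log2 ratio of -0.41 and medians of -0.45, -0.30 and -0.54 on replicates 1, 2 and 3. Its summed log2 intensity was 207.84 to 211.71 in the natural and 200.02 to 203.95 in the short photoperiod goats. The CD4 probes were not well above background on any array in Cy5. For KRT14 the log2 ratios averaged 0.680 ± 0.545 (SD, n = 3), and of the 5 fibroblast probes 3 were lower, with a median of -0.41. Their part in the results below was not tested, and in whole skin, fewer cells of a type and less RNA per cell cannot be told apart.

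No heat shock or ER stress gene passed the test. In limma, 14977 probes were tested, and after Benjamini-Hochberg adjustment over these 0 of the 24 members had an adjusted p under 0.05, where 1 probe on the array did (0.00668%). The count was also 0 when the channels were fitted separately, paired or unpaired. Under median centring in place of loess it was 1, ATF4, where 1880 of the 14977 tested probes were called. The unadjusted p was under 0.05 for 5 members with lower signal under the short photoperiod, where 9.35% of all probes were, and for 1 member with higher signal, where 9.11% of all probes were. A mean change of at least 2-fold was reached by 0 members and by 0.841% of all probes, and the DDIT3 pair, with a fold change of 0.504, was just outside and went past 2-fold under 5 other ways of processing and without replicate 1. Lower values on all 3 arrays were found for 7 of the 24 (22.0% of all probes with 3 values) and higher values on all 3 for 2 (21.6%). Among the 7 was the TC53239 probe, assigned to HSP90AA1 by its description alone. The normalized intensities of the short and natural goats did not overlap for 6 members, 5 of them lower and 1 higher under the short photoperiod, and for 13.8% of all probes. By mean ratio, 14 members were lower and 10 higher, with a median of -0.05, against a median of -0.01 and 51.1% lower over all probes, whereas under median centring 4 members were lower and their median was 0.25. With 1 array left out, the members' median was -0.080, -0.014 and -0.112 without replicates 1, 2 and 3, and 13, 12 and 19 members were lower. The 6 members with an unadjusted p under 0.05 are the same as the 6 without overlap and come from 5 genes, DDIT3, HSPA5, PDIA5, DNAJA1 and TBCD.

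**Figure D1:**
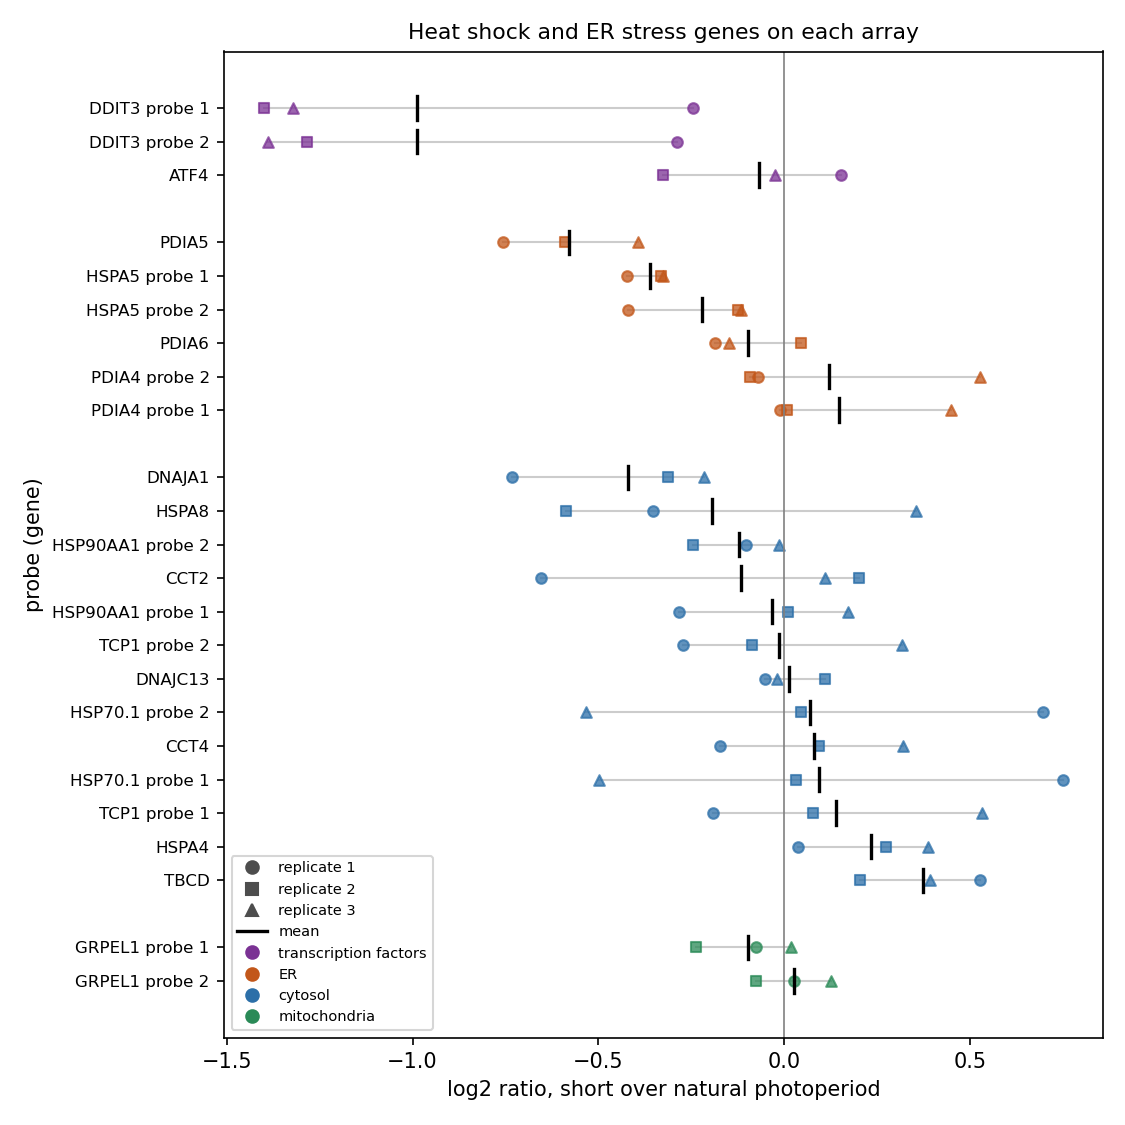
Log2 ratio of the short over the natural photoperiod (x axis) for the 24 probes (y axis), grouped by compartment, with 1 symbol for each array and a black bar for the mean of the 3 arrays. DDIT3 stands farthest to the left with both probes near -0.99, PDIA5 and the HSPA5 probes lie left of 0 on every array, and the HSP70.1 probes spread from -0.53 to 0.75.

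The largest difference among the members was that of DDIT3, a transcription factor of the ER stress response that promotes cell death. The first DDIT3 probe had log2 intensities of 10.97, 11.30 and 11.43 in the natural goats and 10.73, 9.91 and 10.11 in the short photoperiod goats of replicates 1, 2 and 3. All 3 short photoperiod goats were below all 3 natural goats, but the difference of replicate 1 was small beside the other two. The log2 ratios were -0.25, -1.40 and -1.32, with a mean of -0.99 ± 0.64 (SD, n = 3). The adjusted p from limma was 0.187. Its overlapping neighbour gave -0.29, -1.28 and -1.39, with a mean of -0.99 ± 0.61 and an adjusted p of 0.183. The spread of DDIT3 between arrays was larger than that of 94.5% and 93.8% of the tested probes. The study picked DDIT3 from these same arrays as one of its lower genes, so its ratio is no independent evidence. Without replicate 2 the mean of the first probe was -0.78, and without replicate 1 it was -1.36, and limma gave adjusted p-values of 0.459 and 0.248.

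ATF4 (NM_001142518) is the transcription factor that acts upstream of DDIT3, and its ratios lay on both sides of 0. Its log2 intensity was 15.47, 15.62 and 15.45 in the natural and 15.62, 15.29 and 15.43 in the short photoperiod goats, and the groups overlapped. The log2 ratios of 0.15, -0.33 and -0.03 gave a mean of -0.07 ± 0.24 (SD, n = 3) and an adjusted p of 0.804 from limma. ATF4 was the brightest member, brighter than 97.3% of the tested probes, and its sign depended on the normalization, with a mean of 0.62 and an adjusted p of 0.0431 under median centring in place of loess.

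In the ER, PDIA5 and both HSPA5 probes had lower signal under the short photoperiod on every array, by less than 2-fold, but the means of HSPA5 turned to 0.14 and 0.39 under median centring, and neither gene passed the test. PDIA5 (NM_001163046), which forms disulfide bonds in secreted proteins, had log2 intensities of 13.56, 13.11 and 13.03 in the natural and 12.81, 12.53 and 12.64 in the short photoperiod goats, and the groups did not overlap. Its log2 ratios of -0.76, -0.59 and -0.39 averaged -0.58 ± 0.18 (SD, n = 3), which is 0.669-fold, and its adjusted p of 0.162 from limma was the lowest among the members after loess with all 3 arrays. The probe printed in full here shows the part of PDIA5 that was measured.

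PDIA5: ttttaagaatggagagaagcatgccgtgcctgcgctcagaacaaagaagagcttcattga

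HSPA5, the main HSP70 protein of the ER, was read by its pair of separate probes. The first had log2 intensities of 15.20, 15.20 and 15.09 in the natural and 14.78, 14.87 and 14.76 in the short photoperiod goats, with no overlap. Its log2 ratios of -0.42, -0.33 and -0.33 had a mean of -0.36 ± 0.05 (SD, n = 3), a fold change of 0.779, and their spread was among the smallest on the array, larger than that of 6.34% of the tested probes. The adjusted p was 0.194 from limma. The second probe gave -0.42, -0.12 and -0.12, with a mean of -0.22 ± 0.17 and an adjusted p of 0.363, and there the groups overlapped.

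The remaining disulfide isomerases, which also form and rearrange disulfide bonds, had means closer to 0, and their difference from PDIA5 was not tested. PDIA6 (TC60254) had log2 ratios of -0.19, 0.05 and -0.15, with a mean of -0.10 ± 0.12 (SD, n = 3). The PDIA4 probes of separate identifiers (DQ239649 and TC63793) had means of 0.15 ± 0.26 and 0.12 ± 0.35, and were highest on replicate 3, where they reached 0.45 and 0.53. On replicates 1 and 2 the PDIA4 ratios lay between -0.09 and 0.01. The adjusted p-values of PDIA4 and PDIA6 from limma were between 0.583 and 0.708, and the means of PDIA6 and of the second PDIA4 probe turned to 0.49 and -0.025 under median centring.

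**Figure D2:**
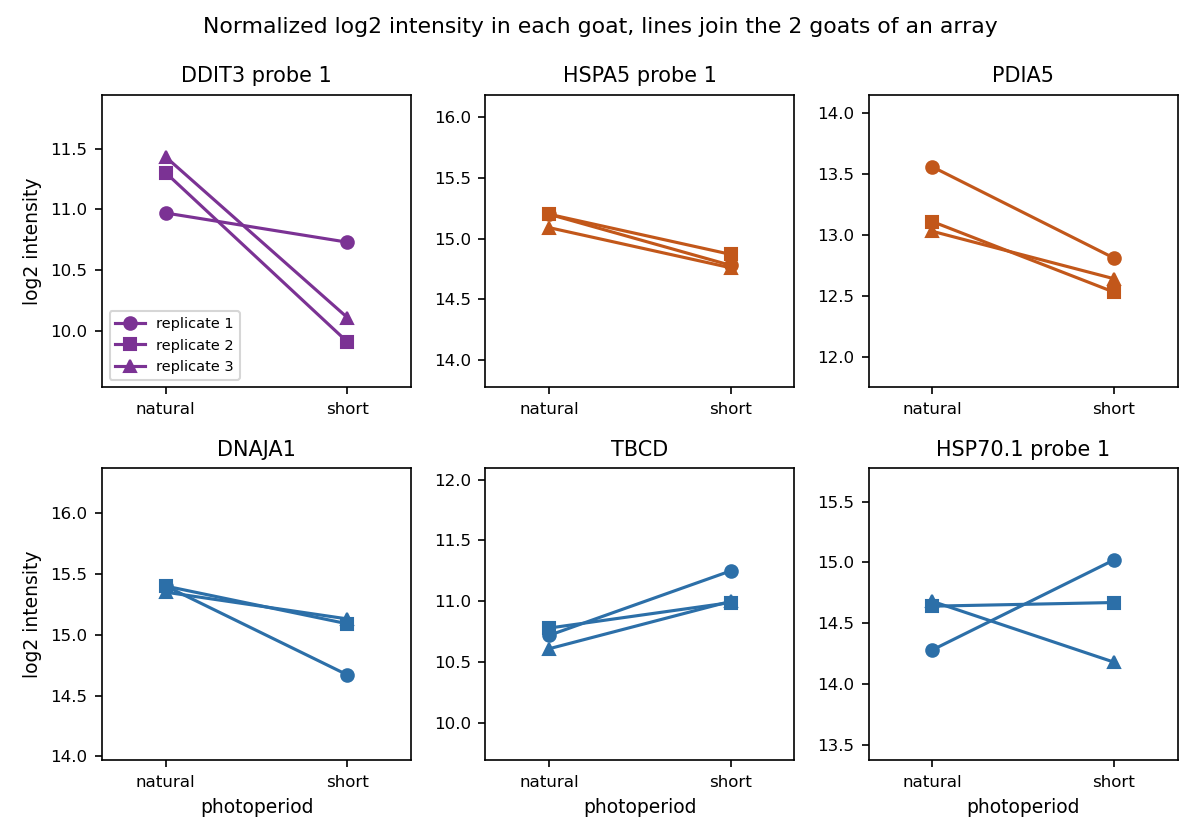
Normalized log2 intensity (y axis, with the same span in each panel) of 6 probes in the natural and short photoperiod goat of each array, joined by a line for each array. DDIT3, HSPA5, PDIA5 and DNAJA1 have every short photoperiod goat below every natural goat and TBCD the reverse, whereas the lines of HSP70.1 run in opposite directions.

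Among the cytosolic HSP70 machinery, DNAJA1, a J-domain cochaperone of HSP70, had the lowest mean after loess, whereas under median centring HSPA4 did, at 0.046. DNAJA1 (TC69304) had log2 intensities of 15.40, 15.40 and 15.35 in the natural and 14.67, 15.09 and 15.13 in the short photoperiod goats, again with no overlap. The log2 ratios of -0.73, -0.31 and -0.22 averaged -0.42 ± 0.27 (SD, n = 3), or 0.747-fold, and the adjusted p was 0.228 from limma. Under median centring the mean of DNAJA1 was 0.15, and without replicate 1 it was -0.27, with an adjusted p of 0.370.

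HSP70.1, the heat-inducible HSP70, varied between the pairs of goats more than it differed between the conditions. HSP70 genes exist as near-identical copies, which such a probe may not tell apart. The log2 intensities of the first probe were 14.28, 14.64 and 14.68 in the natural and 15.02, 14.67 and 14.18 in the short photoperiod goats. The signal was thus higher in the short photoperiod goat of replicate 1, nearly equal on replicate 2 and lower on replicate 3. The ratios of 0.75, 0.03 and -0.50 had a mean of 0.09 ± 0.63 (SD, n = 3), and the overlapping probe repeated them with 0.69, 0.04 and -0.53. Their spread was larger than that of 94.2% and 94.0% of all tested probes. Both probes were far from the threshold in limma (adjusted p of 0.857 and 0.895). The mean of the first probe was -0.017 in the authors' value table, and without replicate 1 the means were -0.23 and -0.24.

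The constitutive HSP70 of the cytosol, HSPA8 (TC77372), had log2 ratios of -0.35, -0.59 and 0.35, with a mean of -0.20 ± 0.49 (SD, n = 3). Its order over the arrays was not that of HSP70.1. HSPA4 (TC63141), an HSP110-type protein that helps HSP70 release its nucleotide, was higher on all 3 arrays, by 0.04, 0.27 and 0.39, with a mean of 0.23 ± 0.18 and an adjusted p of 0.347 from limma, and its short and natural goats overlapped. DNAJC13 (TC59165), a J-domain protein of endosomes, had a mean of 0.01 ± 0.08. HSP90AA1, the stress-inducible cytosolic HSP90, was read under its array name by the EF091713 probe, with a mean of -0.03 ± 0.23. The TC53239 probe, assigned to HSP90AA1 by its description alone, had a mean of -0.12 ± 0.12, below 0 on all 3 arrays. Its sequence was not matched to a transcript, so its gene is uncertain, and it is counted among the cytosolic members. Both means were above 0 under median centring, at 0.48 and 0.11.

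The subunits of TRiC gave ratios on either side of 0. The TCP1 probes (EU366481) had means of 0.14 ± 0.37 and -0.01 ± 0.30 (SD, n = 3), CCT4 (TC63576) 0.08 ± 0.25 and CCT2 (TC61560) -0.12 ± 0.47. The medians of these 4 probes were -0.23, 0.09 and 0.32 on replicates 1, 2 and 3, so all lay lower in the short photoperiod goat of replicate 1 and higher in that of replicate 3. TBCD (TC54073), a chaperone that assembles tubulin dimers, had the highest mean of the members after loess with all 3 arrays, but not under median centring, where ATF4 had 0.62 and TBCD 0.29, nor without replicate 1, where HSPA4 had 0.33 and TBCD 0.30, nor without replicate 3, where the first HSP70.1 probe had 0.39 and TBCD 0.37. Its log2 intensity was 10.72, 10.78 and 10.61 in the natural and 11.25, 10.99 and 11.00 in the short photoperiod goats, with no overlap. The ratios of 0.53, 0.20 and 0.39 gave a mean of 0.37 ± 0.16, a fold change of 1.30, and an adjusted p of 0.211 from limma.

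Mitochondria were represented by GRPEL1 alone (DQ239622), which recharges the mitochondrial HSP70. Its overlapping probes had log2 ratios of -0.08, -0.24 and 0.02 and of 0.03, -0.08 and 0.13, with means of -0.10 ± 0.13 and 0.03 ± 0.10 (SD, n = 3). The second probe was above the first on every array although they share nearly all their bases. From limma, the adjusted p of the first was 0.641 and that of the second 0.904.

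The compartments were compared by the median of their probes on each array. The ER probes had a median log2 ratio of -0.30, -0.11 and -0.13 on replicates 1, 2 and 3, the cytosolic probes -0.17, 0.05 and 0.17, and the mitochondrial pair -0.03, -0.16 and 0.07. The median of all tested probes lay between -0.004 and 0.000 on the arrays. The ER median was below the cytosolic median on every array, by -0.13, -0.15 and -0.31, a mean of -0.197 ± 0.095 (SD, n = 3), and over the mean ratios the difference was -0.17 after loess, -0.23 after median centring and -0.43 with the members named only by their description left out. With 1 array left out it lay between -0.24 and -0.12. The mitochondrial median minus the cytosolic one was 0.15, -0.20 and -0.10 and changed sign between arrays. Taken over the mean ratios, 4 of 6 ER probes were lower with a median of -0.16, 6 of 13 cytosolic probes were lower with a median of 0.01, and the mitochondrial pair had a median of -0.04, but under median centring these medians were 0.11, 0.34 and 0.11. The ER median was -0.086 without replicate 1 and -0.218 without replicate 2. The cytosolic median was 0.091 without replicate 1 and -0.057 without replicate 3, and the mitochondrial one 0.024 without replicate 2 and -0.090 without replicate 3, so that these signs depended on single arrays. Mitochondria minus cytosol was -0.050 over the mean ratios, -0.133 without replicate 1 and 0.001 without replicate 2. The differences between compartments were not tested. The ER median rests on 4 genes and the mitochondrial one on 1.

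**Figure D3:**
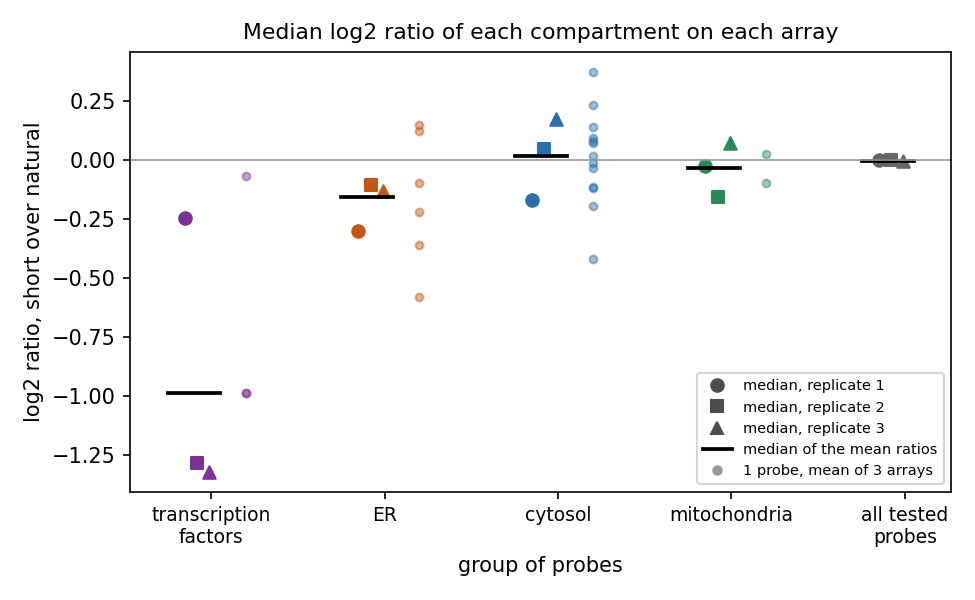
Median log2 ratio of the probes of each compartment on each array (large symbols), the median of the probes' mean ratios (black bar) and each probe's mean ratio (small points), with the median of all tested probes at the right. The ER medians lie at -0.30, -0.11 and -0.13, below the cytosolic ones at -0.17, 0.05 and 0.17, while the transcription factor group, at -0.25, -1.28 and -1.32, is set by the DDIT3 pair.

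Most members were bright. The median member was brighter than 82.9% of the tested probes, with 88.4% for the cytosolic and 77.9% for the ER members. Loess sets the ratio of each probe against probes of equal brightness, whereas median centring leaves a trend with brightness in the ratios. Among the 971 tested probes with a mean log2 intensity of at least 15, the median log2 ratio was 0.01 after loess and 0.65 after median centring. The 7 members in this range had medians of -0.12 and 0.42. Of the 24 probes, 3 were lower (the DDIT3 pair and PDIA5) and 2 were higher (TBCD and HSPA4) under all 13 other ways of fitting the ratios, and 19 changed sign under at least 1 of them. Across these the mean of PDIA5 lay between -0.67 and -0.49 and its adjusted p from limma between 0.0525 and 0.539, and the mean of TBCD lay between 0.29 and 0.46 with an adjusted p between 0.117 and 0.626. HSPA4 had a mean between 0.046, under median centring, and 0.33, without replicate 1, with an adjusted p between 0.316 and 0.989 from limma. The means of the DDIT3 pair lay between -1.36 and -0.78, with adjusted p-values between 0.0502 and 0.459.

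**Figure D4:**
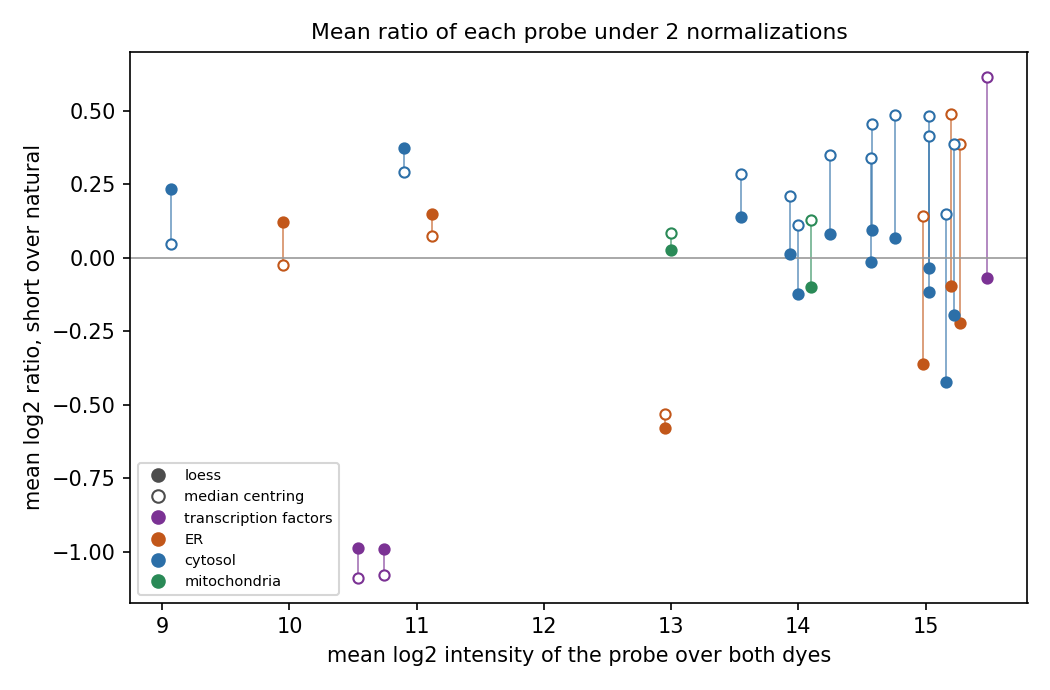
Mean log2 ratio of each of the 24 probes (y axis) against its mean log2 intensity (x axis), after loess (filled) and after median centring (open), with a line joining both values of a probe. Probes at an intensity of 15 or more move upward by the largest amounts, while the DDIT3 pair, PDIA5, TBCD and several other probes keep their side of 0.

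Few other genes of these pathways are named on the array. Of 67 further gene symbols of the unfolded protein response and the heat shock response that are reported here, 2 matched an array name, with 1 probe each. Others may be on the array under other names. In limma 0 of the 2 matched genes passed the test and 0 had an unadjusted p under 0.05, and their median log2 ratio was 0.09. ATF6, a sensor of ER stress, had log2 ratios of 0.16, -0.18 and 0.64, with a mean of 0.20 ± 0.41 (SD, n = 3). CEBPB, a binding partner of DDIT3, had log2 ratios of 0.09, -0.03 and -0.14, with a mean of -0.03 ± 0.12.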

How the data were processed

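The 3 Agilent arrays, of sheep design, each held 15208 spots that are not controls and compared the skin RNA of 2 of the 6 goats. The deposited intensity values are mean spot and median local background signals, which the authors extracted with Agilent Feature Extraction 10.7.3.1 and which are not normalized. The deposited log10 ratio is that of the authors' processed signals, which are background-subtracted and dye-normalized by lowess. The authors' value table holds log2 ratios of Cy5 over Cy3, which equalled those of the processed signals within 0.001 for 99.96% to 100% of 14958 probes with 1 spot, and its column medians were 0.008, 0.001 and 0.018.

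Ratios were recomputed in R 4.3.3 with limma 3.58.1. Background was corrected with normexp (offset 50), and loess was run within each array without control spots, with the 38, 65 and 91 spots that carried any of 4 outlier flags given no weight and then left out. Spots of a probe were averaged, and probes with values on at least 2 arrays were tested against 0 with lmFit and eBayes (adjusted p under 0.05, Benjamini-Hochberg). The 2-fold rule is that of the methods. Intensities per goat were scaled between arrays by Aquantile. The ratio is paired, since each array holds a goat of each condition, which the paper describes as having the same parent. The sample labels name no batch, so none was tested, and the number of arrays limits the precision.

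Members were taken by name and description, and compartments by textbook location. All 17 gene symbols, but 0 of the array's identifiers, were found in the RefSeq table of the goat assembly ARS1.2. Probe sequences were not matched to transcripts, so the gene of a member named only by its description rests on that description. Named with values were a set list of stress genes, any member past a threshold, and the 3 largest mean differences in each direction that held on all arrays. HSP70.1, DNAJC13, GRPEL1, ATF6 and CEBPB fall outside this rule and were named after their values were seen. A gene of the further pathway lists is not reported here. Members, lists and rules were chosen with earlier results of these data known. The p-values set the mean ratio against the spread between the 3 pairs of goats. In eBayes that spread is drawn toward a value estimated over all tested probes. Alternatives changed the background correction, normalization, filters, variance model and pairing, left out each array, or used the authors' ratios. The leukocyte, skeletal muscle, fat, blood, epidermis, hair shaft, inner root sheath, fibroblast, endothelium and pigment lists were matched by name. For the muscle list MYLPF alone was measured (0.48), and the fat list had a median of -0.37 and the blood list -0.23. No tested probe carried a symbol of the hair shaft, inner root sheath and endothelium lists, whose genes may be on the array under other names. The paper reports hair shaft and inner root sheath keratins from these arrays, under other symbols, as higher under the short photoperiod. Its tissue sections placed the short photoperiod follicles in anagen and the control follicles in pro-anagen. The part of this difference in the results was not tested. Figures were drawn with matplotlib 3.10.9.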

Additional observations from a re-analysis of the deposited data

How the results depend on the processing

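The ratios rest on 3 arrays with the dyes in 1 orientation. The alternatives kept 0 members past the adjusted threshold, except that median centring called 1, ATF4, among 1880 calls on the array. Over all probes limma made 1 call, the authors' table gave 14, and 0 were made with any array left out or with Feature Extraction's log ratio. Beside 0 calls, the fit of the separate channels called 0 members of 169 calls, and the fit with no replicate block, which takes the channels as unpaired samples, called 0 of 0, with adjusted p-values of 0.418 and 0.414 for the DDIT3 pair. The count of members past 2-fold was 0 and became 2, the DDIT3 pair, without background correction, with normexp without an offset, under median centring, with Feature Extraction's log ratio and in the authors' table, and ranged from 0 to 2 with 1 array left out. Median centring moved the medians of the ER, cytosol and mitochondria to 0.11, 0.34 and 0.11 and mitochondria minus cytosol to -0.23, while ER minus cytosol stayed below 0, at -0.23. With members named only by their description left out, the ER median was -0.36 and ER minus cytosol -0.43. The cause was not tested.

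Median centring turned the sign of ATF4 (0.62), both HSPA5 probes (0.14 and 0.39), the second PDIA4 probe (-0.025), PDIA6 (0.49), CCT2 (0.42), DNAJA1 (0.15), the HSP90AA1 probes (0.48 and 0.11), HSPA8 (0.39), the second TCP1 probe (0.34) and the first GRPEL1 probe (0.13). Feature Extraction's log ratio and the authors' table turned the first HSP70.1 probe (-0.017 in both), the TCP1 probes (-0.024 and 0.039 in both) and the second GRPEL1 probe (-0.091 in both). With each array left out in turn, signs changed for ATF4 (-0.176 to 0.063), CCT2 (-0.27 to 0.15), CCT4 (-0.039 to 0.21), DNAJC13 (-0.035 to 0.046), the second GRPEL1 probe (-0.025 to 0.076), the HSP70.1 probes (-0.23 to 0.39 and -0.24 to 0.37), the first HSP90AA1 probe (-0.138 to 0.091), HSPA8 (-0.471 to 0.000), the PDIA4 probes (-0.002 to 0.23 and -0.082 to 0.23) and the TCP1 probes (-0.057 to 0.30 and -0.18 to 0.11). No other member changed sign or passed the threshold under the settings run.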
